A study of Mus musculus with 12 samples.

Results

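The genes described here encode proteins of the tight junction, namely the claudins Cldn3, Cldn4, Cldn6, Cldn7 and Cldn18, the membrane proteins occludin (Ocln) and junctional adhesion molecule A (F11r), and the cytoplasmic scaffolds Tjp1 and Tjp3. They were chosen by gene symbol, and all 9 genes were present, with 11 of the 62976 array features and as 9 of the 20736 named genes. Whole lungs of C57bl/6J mouse embryos (E12.5 in the study's text) were measured on 12 one-colour arrays, with n = 3 arrays in each of 4 groups. Loss-of-function (LOF) lungs carried Rosa26rtTAtet(O)solubleR2b, in which doxycycline switches on a secreted form of the receptor FGFR2b that captures FGF10 and related ligands. Per the study's text, mothers received a single doxycycline injection, and lungs were taken 6 h (LOF 6 h) or 9 h (LOF 9 h) later. In gain-of-function (GOF) lungs the construct was Rosa26rtTAtet(O)fgf10, under 9 h of doxycycline. The labels call the controls wild-type lungs without treatment, whereas the study's text gives the LOF controls as littermates with the rtTA transactivator from doxycycline-treated mothers, most taken at 6 h and the rest at 9 h. Which account holds for these control arrays is not settled. If the labels hold, effects of the transactivator, of doxycycline and of the transgene cannot be told apart. If the study's text holds, the controls are not matched to either LOF group in collection time. The transactivator is driven from the ubiquitous Rosa26 locus, so the soluble receptor is not made by the epithelium alone. Each array of the LOF experiment held RNA of a single lung, per the study's text, which does not describe the GOF lungs.

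Tight junctions seal the space between neighbouring epithelial cells near their apical side. Claudins form the strands that decide which ions and small molecules pass, occludin and junctional adhesion molecules lie in the same membranes, and scaffolds such as Tjp1 and Tjp3 tie them to the actin cytoskeleton. In the embryonic lung the junctions line the fluid-filled lumen of the branching epithelium, in which FGF10 from the mesenchyme acts through epithelial FGFR2b.

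Values are log2 intensities of the brightest feature of each gene, normalized so that all arrays share the same distribution, with a median of 2.98 over all features. Differences are log2 differences ± standard error (SE) from limma with 95% intervals, and p-values were adjusted by the Benjamini-Hochberg method over all 20736 genes, with a threshold of 0.05. The arrays correlated with others of their own group at 0.974 to 0.980 on average. Etv5, an ETS transcription factor gene induced by FGF signalling, differed from control by -2.36 ± 0.16 in LOF 9 h lungs (adjusted p = 6.39e-04) and by -1.87 ± 0.16 in LOF 6 h lungs (adjusted p = 0.00310). Sftpc, a surfactant gene that marks distal lung epithelium, differed by -2.86 ± 0.32 in LOF 9 h lungs (adjusted p = 0.00905) and by -1.73 ± 0.32 in LOF 6 h lungs, which missed the threshold (adjusted p = 0.132). In GOF 9 h lungs neither passed, with Etv5 at 0.05 ± 0.16 and Sftpc at -0.66 ± 0.32 from control. The Fgf10 feature read 8.12, 8.12 and 7.34 on GOF 9 h arrays, against 7.43, 7.94 and 7.91 on control arrays. It is not known whether this feature reads the transgene, so it does not check the GOF label, and GOF 9 h stands here for arrays labelled so. In RNA of whole lungs, fewer cells of a type and less RNA per cell cannot be told apart.

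None of the 9 tight junction genes passed the threshold in any comparison. In LOF 9 h lungs the scaffold gene Tjp3 had the largest difference of the 9, at 1.99-fold above control, and Cldn7 was 1.34-fold lower. Both differences had the same sign in LOF 6 h lungs, where Tjp3 was 1.53-fold higher and Cldn7 1.30-fold lower. On the log2 scale Cldn7 differed by -0.42 in LOF 9 h lungs. Ocln (-0.69), Cldn4 (-0.61) and Cldn18 (-0.51) lay further below control there, with larger SE. Members other than Tjp3 and Cldn7 differed from control by at most 0.69 in any treated group, and Tjp1 and F11r by at most 0.18. The upstream sequences of Tjp3 and Cldn7 are shown because these genes had the smallest p of the members in LOF 9 h lungs. They were also the only members whose window before the first annotated start held the letters GGAAGT, a core of the sites that ETS factors such as Etv5 bind. Each is the 250 bases before the first of 2 annotated starts (RefSeq, GRCm38.p6), written 5′ to 3′ on the strand of the gene, with GGAAGT in capitals. The Tjp3 window is chr10:81291582-81291831 on the minus strand, and its match begins 93 bases before the start. The Cldn7 window is chr11:69964529-69964778 on the plus strand, and its match begins 117 bases before the start.
Tjp3: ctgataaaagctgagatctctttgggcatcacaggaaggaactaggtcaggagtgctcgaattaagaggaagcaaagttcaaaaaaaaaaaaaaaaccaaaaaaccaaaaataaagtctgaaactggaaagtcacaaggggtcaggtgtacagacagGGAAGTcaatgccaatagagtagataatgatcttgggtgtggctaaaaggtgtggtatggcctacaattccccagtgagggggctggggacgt
Cldn7: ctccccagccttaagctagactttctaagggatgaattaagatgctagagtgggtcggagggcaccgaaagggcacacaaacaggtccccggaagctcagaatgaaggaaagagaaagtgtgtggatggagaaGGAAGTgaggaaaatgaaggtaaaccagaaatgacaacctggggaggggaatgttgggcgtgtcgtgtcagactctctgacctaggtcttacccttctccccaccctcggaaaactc
GGAAGT or its complement ACTTCC was present in 19.7% of the 32851 windows of this length, so a match in 2 of 9 windows is not far from that share. The letters AACCGGTT, a strong site of Grainyhead-like factors that act in epithelia, were found in 0 of the 9 members' windows and in 0.1% of all windows. A match is a description of letters and not a binding site, and which start the array features read was not established. Further annotated starts of the members, which Ocln and Cldn18 also have, were not searched.

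Tjp3 encodes ZO-3, a zonula occludens scaffold of epithelial cells. It read 7.98, 7.70 and 7.91 in LOF 6 h lungs, 8.53, 8.12 and 8.09 in LOF 9 h lungs, 6.26, 7.03 and 7.58 in GOF 9 h lungs, and 7.17, 7.27 and 7.32 in control lungs. All 6 LOF arrays lay above all 3 control arrays, and all 3 arrays of LOF 9 h lay above those of LOF 6 h. The GOF arrays spread on both sides of the controls, with 1 array above them and 2 below. The group mean was 7.86 ± 0.15 in LOF 6 h, 8.25 ± 0.24 in LOF 9 h, 6.95 ± 0.66 in GOF 9 h and 7.25 ± 0.07 in control lungs (SD, n = 3 each). In the order of means, LOF 9 h, LOF 6 h, control and GOF 9 h, only the neighbours control and GOF 9 h overlapped, and no neighbouring pair differed past the threshold.

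Tjp3 differed from control by 0.99 ± 0.28 in LOF 9 h lungs (95% interval 0.37 to 1.61, adjusted p = 0.348 by limma), with the 294th smallest p of all genes. In LOF 6 h lungs its difference was 0.61 ± 0.28 (-0.01 to 1.23, adjusted p = 0.546 by limma). In GOF 9 h lungs it was -0.30 ± 0.28 (-0.92 to 0.32, adjusted p = 0.987 by limma), and without GOF 9 h array 1 it was 0.05. Set directly against each other, GOF 9 h lungs were lower in Tjp3 than LOF 9 h lungs, with a difference of -1.29 ± 0.28 (-1.91 to -0.67), a 2.45-fold difference with no overlap between the groups. The adjusted p of 0.0883 by limma missed the threshold. Of 25 alternative fits, 2 passed, with trended and robust variances (adjusted p = 0.00268) and without GOF 9 h array 3 (-1.60, adjusted p = 0.0326). Over all of these limma fits the adjusted p reached 0.474, and with an array left out the difference ran from -1.60 to -0.95. LOF 9 h lungs were higher than LOF 6 h lungs by 0.38 ± 0.28 (adjusted p = 0.697 by limma).

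Marker genes that moved with the groups are given beside Tjp3. The mean of 3 measured Y-linked genes, relative to the control mean, was -0.54 to 1.61 on LOF 6 h arrays, -0.87 to -0.52 on LOF 9 h arrays, -0.46 to 2.56 on GOF 9 h arrays and -0.71 to 1.36 on control arrays. GOF 9 h array 1 had the highest value of the 12 arrays and the lowest Tjp3. The next highest were LOF 6 h array 3 (1.61), control array 2 (1.36) and LOF 6 h array 2 (1.18). They read 7.91, 7.27 and 7.70 for Tjp3, but belong to groups other than GOF 9 h, and a link between sex and Tjp3 was not tested. Of the 3 Y-linked genes, 2 lay below the median feature on average. Xist, which is expressed in female cells, read 2.36, 2.20 and 1.94 in LOF 6 h lungs, 6.18, 5.51 and 6.35 in LOF 9 h lungs, 1.93, 6.21 and 5.53 in GOF 9 h lungs, and 5.96, 2.11 and 5.94 in control lungs, so that it separated LOF 9 h from LOF 6 h without overlap. The Y-linked gene Eif2s3y read 3.31, 7.74 and 7.59 in LOF 6 h lungs. LOF 6 h array 1 was thus low in both Xist and Eif2s3y, and its sex is not clear. The 13 heart muscle genes, all measured, averaged 0.52 to 1.24 on LOF 6 h arrays, -0.35 to 0.38 on LOF 9 h arrays, -0.85 to -0.26 on GOF 9 h arrays and -0.41 to 0.42 on control arrays. In a fit with the Y-linked mean as covariate, Tjp3 differed by 0.86 between LOF 9 h and control, by 0.08 between LOF 9 h and LOF 6 h and by -1.01 between GOF 9 h and LOF 9 h. In a fit with the heart mean as covariate Tjp3 differed by 0.98 between LOF 9 h and control, by 0.74 between LOF 9 h and LOF 6 h, by -0.98 between GOF 9 h and LOF 9 h and by 0.25 between LOF 6 h and control.

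Other marker lists also moved, and their part in the values of the tight junction genes was not tested. The 12 genes of the distal tip epithelium averaged -0.78 to -0.72 on LOF 6 h arrays, -1.27 to -1.11 on LOF 9 h arrays, 0.05 to 0.55 on GOF 9 h arrays and -0.10 to 0.10 on control arrays, and 11 of 12 were lower than control at both LOF times. Of the 12 arrays, GOF 9 h array 1 had the highest of these means, at 0.55. The tip list includes Etv5, Sftpc, Id2, Lin7a and Shh, which the study named for their fall after this block. Its fall in LOF lungs was thus partly set in advance. The 9 measured proximal airway genes averaged 0.28 to 0.68 on LOF 6 h arrays and 0.07 to 0.72 on LOF 9 h arrays. They averaged -0.32 to 0.10 on GOF 9 h arrays and -0.22 to 0.13 on control arrays. At both LOF times 6 were above control and 3 below. Called higher were 2 at LOF 6 h and 1 at LOF 9 h, beside 0.0723% of all genes in either direction. The 2 at LOF 6 h were Foxa3, at 2.26, and Upk3a, at 1.82, beside a list median of 0.31. In LOF 6 h lungs all 9 neural genes and all 9 erythroid and macrophage genes were above control, with medians of 0.61 and 0.44. The neural genes averaged 0.49 to 0.96 on LOF 6 h arrays, -0.03 to 0.31 on LOF 9 h arrays, -0.53 to 0.15 on GOF 9 h arrays and -0.26 to 0.16 on control arrays. The erythroid and macrophage genes averaged 0.45 to 0.51 on LOF 6 h arrays, -0.36 to 0.08 on LOF 9 h arrays, -0.10 to -0.01 on GOF 9 h arrays and -0.38 to 0.30 on control arrays.

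**Figure D1:**
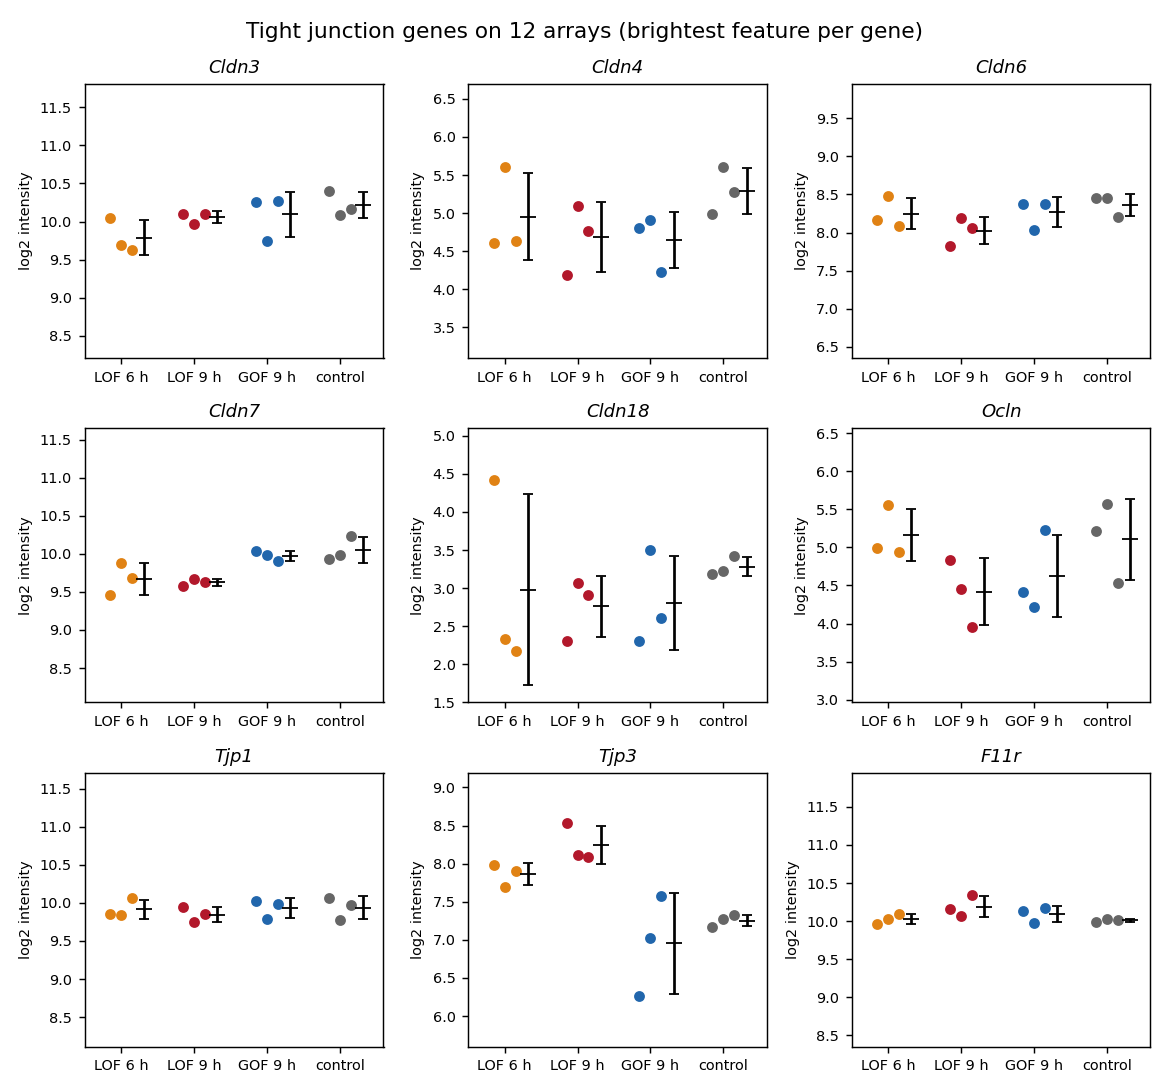
Log2 intensity of each of the 9 genes on the 12 arrays (brightest feature), with arrays 1, 2 and 3 from left to right as points and mean ± SD (n = 3) as a bar; every panel spans the same number of log2 units. Tjp3 on all LOF arrays (7.70 to 8.53) lay above the control arrays (7.17 to 7.32), and Cldn7 on all LOF arrays (9.46 to 9.88) lay below them (9.93 to 10.24).

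Among the claudins, Cldn7 had the smallest p against control. Cldn7 is an epithelial claudin that is found along the basolateral membrane as well as at the junction. It read 9.46, 9.88 and 9.68 in LOF 6 h lungs, 9.58, 9.67 and 9.63 in LOF 9 h lungs, 10.04, 9.98 and 9.90 in GOF 9 h lungs, and 9.93, 9.98 and 10.24 in control lungs. All 6 LOF arrays lay below all GOF and control arrays, and GOF and control arrays overlapped. The difference from control was -0.42 ± 0.14 in LOF 9 h lungs (-0.74 to -0.11, adjusted p = 0.466 by limma). In LOF 6 h lungs it was -0.38 ± 0.14 (-0.69 to -0.06, adjusted p = 0.449 by limma), and -0.15 with the heart mean as covariate. In GOF 9 h lungs it was -0.08 ± 0.14 (-0.39 to 0.24, adjusted p = 0.999 by limma). GOF 9 h lungs were higher in Cldn7 than LOF 9 h lungs by 0.35 ± 0.14 (adjusted p = 0.365 by limma), with no overlap, and by 0.15 with the heart mean as covariate.

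Cldn3, a barrier-forming claudin of many epithelia, read 10.05, 9.69 and 9.62 in LOF 6 h lungs, 10.10, 9.97 and 10.10 in LOF 9 h lungs, 10.26, 9.75 and 10.27 in GOF 9 h lungs, and 10.40, 10.08 and 10.17 in control lungs. The LOF 6 h arrays all lay below the controls, while those of LOF 9 h and GOF 9 h overlapped them. The difference from control was -0.43 ± 0.18 in LOF 6 h lungs (-0.83 to -0.03, adjusted p = 0.498 by limma), and -0.69 with the heart mean as covariate. In LOF 9 h lungs it was -0.16 ± 0.18 (-0.56 to 0.24), and in GOF 9 h lungs -0.12 ± 0.18 (-0.52 to 0.28).

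Cldn4, which lies next to Cldn3 on chromosome 5 in the RefSeq annotation and is likewise a barrier-forming claudin, had values at which the arrays of a group spread widely. It read 4.61, 5.61 and 4.63 in LOF 6 h lungs, 4.19, 5.10 and 4.76 in LOF 9 h lungs, 4.81, 4.91 and 4.23 in GOF 9 h lungs, and 4.99, 5.60 and 5.28 in control lungs. The GOF arrays all lay below the controls, and the LOF arrays overlapped them. Its LOF 6 h difference from control was -0.34 ± 0.33, its LOF 9 h difference -0.61 ± 0.33 and its GOF 9 h difference -0.64 ± 0.33 (adjusted p = 0.809, 0.725 and 0.957 by limma). The second Cldn4 feature, which read 2.81 to 5.48 over the 12 arrays, gave 0.45 ± 0.63 for LOF 9 h and 0.05 ± 0.63 for GOF 9 h, so its sign was opposite to that of the brightest feature there.

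Cldn6, a claudin of embryonic epithelia, read 8.17, 8.48 and 8.09 in LOF 6 h lungs, 7.83, 8.19 and 8.06 in LOF 9 h lungs, 8.38, 8.04 and 8.38 in GOF 9 h lungs, and 8.45, 8.45 and 8.20 in control lungs. The LOF 9 h arrays lay just below the controls and the other groups overlapped them. The difference from control was -0.34 ± 0.16 in LOF 9 h lungs (-0.71 to 0.02, adjusted p = 0.660 by limma), against -0.12 ± 0.16 for LOF 6 h and -0.10 ± 0.16 for GOF 9 h. Cldn18, which has an isoform of the lung and one of the stomach and belongs to the later alveolar epithelium, averaged 2.96, close to the median feature of an array. It read 4.42, 2.33 and 2.18 in LOF 6 h lungs, 2.31, 3.07 and 2.91 in LOF 9 h lungs, 2.31, 3.50 and 2.61 in GOF 9 h lungs, and 3.19, 3.23 and 3.42 in control lungs. LOF 6 h array 1 and GOF 9 h array 2 lay above the controls and every other treated array below them. With an SE of 0.53, the intervals of its differences spanned -1.70 to 0.89, wider than any claudin's difference from control. The 15 measured stomach and gut genes, relative to the control mean, averaged 0.19 to 0.45 on LOF 6 h arrays, 0.43 to 0.52 on LOF 9 h arrays, -0.16 to 0.09 on GOF 9 h arrays and -0.05 to 0.09 on control arrays, and their part in the Cldn18 values was not tested.

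Occludin is a membrane-spanning junction protein with a MARVEL domain. Ocln read 4.99, 5.55 and 4.94 in LOF 6 h lungs, 4.84, 4.45 and 3.96 in LOF 9 h lungs, 4.42, 4.22 and 5.23 in GOF 9 h lungs, and 5.21, 5.57 and 4.53 in control lungs. All treated groups overlapped the controls, and the LOF 9 h arrays all lay below those of LOF 6 h. The difference between LOF 9 h and LOF 6 h lungs was -0.75 ± 0.35 (-1.53 to 0.03, adjusted p = 0.512 by limma), and -0.69 ± 0.35 between LOF 9 h and control lungs (-1.47 to 0.09, adjusted p = 0.690 by limma). The first of these was -0.16 with the heart mean as covariate. In GOF 9 h lungs the difference from control was -0.48 ± 0.35 and in LOF 6 h lungs 0.06 ± 0.35. The second Ocln feature read 2.23 to 4.65 and gave -0.41 ± 0.56 in LOF 9 h lungs, 0.32 ± 0.56 in GOF 9 h lungs and -0.21 ± 0.56 in LOF 6 h lungs, each against control, and -0.20 ± 0.56 between LOF 9 h and LOF 6 h lungs.

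F11r and Tjp1 varied least. F11r, an immunoglobulin-type adhesion protein of epithelia, endothelia and blood cells, read 9.96, 10.03 and 10.09 in LOF 6 h lungs, 10.16, 10.07 and 10.34 in LOF 9 h lungs, 10.14, 9.97 and 10.17 in GOF 9 h lungs, and 9.99, 10.03 and 10.01 in control lungs. The LOF 9 h arrays lay above the controls, whose own SD was 0.02, by 0.18 ± 0.12 (-0.08 to 0.45, adjusted p = 0.770 by limma). For LOF 6 h the difference was 0.02 ± 0.12 and for GOF 9 h 0.09 ± 0.12. Tjp1, which encodes ZO-1, the scaffold shared by epithelial and endothelial junctions, read 9.85, 9.84 and 10.06 in LOF 6 h lungs, 9.94, 9.75 and 9.85 in LOF 9 h lungs, 10.03, 9.79 and 9.98 in GOF 9 h lungs, and 10.07, 9.77 and 9.97 in control lungs. All groups overlapped. Its intervals ran from -0.32 to 0.28 for LOF 6 h, from -0.39 to 0.21 for LOF 9 h and from -0.30 to 0.30 for GOF 9 h.

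**Figure D2:**
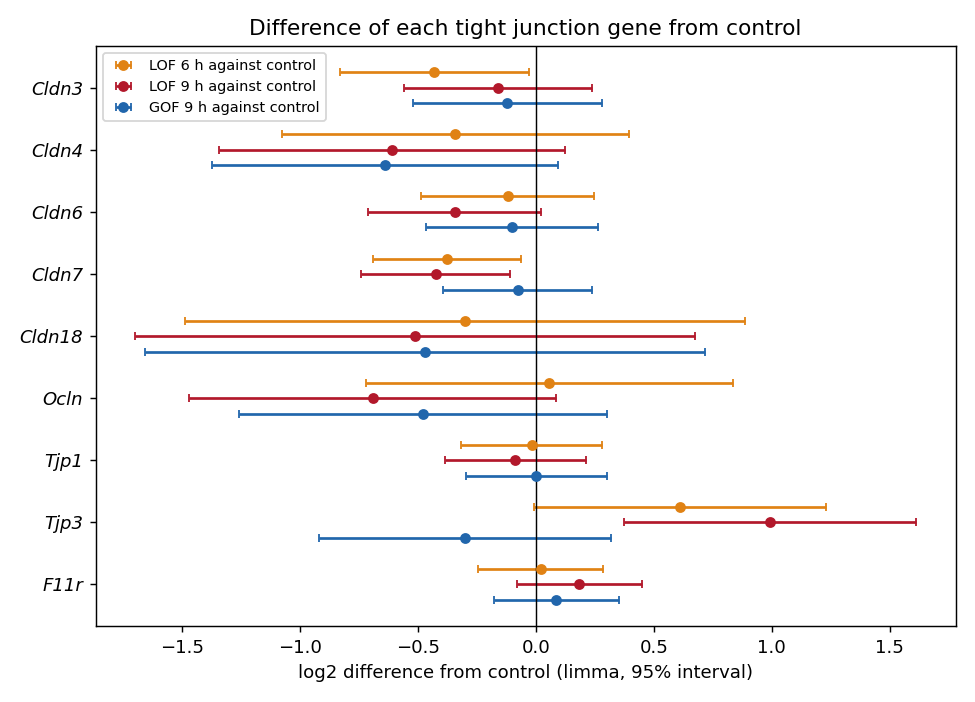
Log2 difference of each gene from control with its 95% interval (limma, n = 3 arrays per group), for LOF 6 h, LOF 9 h and GOF 9 h, which share the same control arrays. In LOF 9 h lungs the intervals of Tjp3 (0.37 to 1.61) and Cldn7 (-0.74 to -0.11) left out 0 before adjustment for the number of genes, and those of Cldn18 and Ocln were wide.

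As a group, the 9 genes had 0 calls at an adjusted p under 0.05 in each of the 3 treated groups against control, while limma called 0.0723% of all genes at LOF 6 h, 0.0723% at LOF 9 h and 0% at GOF 9 h. At an unadjusted p under 0.05 the LOF 6 h comparison held 2 members, Cldn3 and Cldn7, both lower, beside 4.56% of all genes, and 0 higher members, beside 4.8%. The LOF 9 h comparison held Tjp3 as the 1 higher member and Cldn7 as the 1 lower member, beside 3.75% and 4.17% of all genes, and the GOF 9 h comparison held 0, beside 5.15% in either direction (2.33% higher and 2.82% lower). The groups did not overlap for 3 of 9 members in LOF 6 h lungs, against 16.4% of all genes, and for 5 of 9 in LOF 9 h lungs, against 15.4%. These 5 were Cldn6, Cldn7 and Cldn18, which were lower, and Tjp3 and F11r, which were higher. In GOF 9 h lungs it was 1 of 9, Cldn4, against 9.42%.

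Most members lay below control. In LOF 9 h lungs 7 of 9 did, beside 50% of all genes, and their median difference was -0.34, beside 0.00 over all genes. In LOF 6 h lungs it was 6 of 9, beside 46.5% of all genes, and in GOF 9 h lungs 7 of 9, beside 49.6%. The median difference was -0.12 in LOF 6 h lungs, beside 0.02 over all genes, and -0.12 in GOF 9 h lungs, beside 0.00. The 3 comparisons share their control arrays and are not separate observations. Between GOF 9 h and LOF 9 h lungs, 0 members and 0.28% of all genes were called. At an unadjusted p under 0.05 the members were Tjp3, lower beside 5.88% of genes, and Cldn7, higher beside 6.03%, with these same 2 of 9 members not overlapping, against 17.8% of genes. Between LOF 9 h and LOF 6 h lungs, 0 members and 0.0627% of all genes were called (0 members and 10.2% of genes at an unadjusted p under 0.05), and 2 of 9 did not overlap (Ocln lower and Tjp3 higher in LOF 9 h lungs) against 17.6%.

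Reference genes of the epithelium are given for comparison. The 19 measured epithelial genes had a median difference of 0.13 for LOF 6 h, 0.00 for LOF 9 h and 0.02 for GOF 9 h, and array means relative to the control mean between -0.03 and 0.18 on the treated arrays and between -0.07 and 0.05 on the control arrays. Cdh1, the adherens junction protein E-cadherin, differed by -0.04 ± 0.18 at LOF 6 h, -0.22 ± 0.18 at LOF 9 h and -0.19 ± 0.18 at GOF 9 h. Epcam, an epithelial adhesion protein that binds Cldn7, differed by 0.46 ± 0.19 at LOF 6 h (adjusted p = 0.481), 0.52 ± 0.19 at LOF 9 h (adjusted p = 0.516) and 0.38 ± 0.19 at GOF 9 h (adjusted p = 0.957 by limma), and none of these groups overlapped the controls. With the epithelial mean subtracted from every array, Tjp3 differed from control by 0.49 at LOF 6 h and 0.95 at LOF 9 h, and Cldn7 by -0.50 at LOF 6 h and -0.47 at LOF 9 h.

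A list of 49 further tight junction genes, of which 46 were measured, covered other claudins, other adhesion molecules, scaffolds and the polarity complexes that set the junction's position. None passed the threshold in any comparison. At an unadjusted p under 0.05, 5 of the 46 were higher and 1 lower in LOF 6 h lungs, beside 4.8% and 4.56% of all genes. In LOF 9 h lungs 4 were higher and 2 lower, beside 3.75% and 4.17%, and in GOF 9 h lungs 0 were higher and 1 lower, beside 2.33% and 2.82%. Their median difference was 0.07 for LOF 6 h, 0.04 for LOF 9 h and 0.01 for GOF 9 h. In LOF 9 h lungs the 4 with the smallest p were Ybx3, a Y-box protein that ZO-1 binds, at -0.41 ± 0.12, Rab13, a small GTPase of junction assembly, at 0.45 ± 0.16, the scaffold Magi3 at 0.66 ± 0.25, and Marveld2, tricellulin, found where the corners of cells meet, at 0.67 ± 0.26 (adjusted p = 0.385 to 0.539 by limma). All 4 had arrays that did not overlap the controls, but they were picked for their small p. Of the 46 genes, 8 were higher and 5 lower without overlap, beside 15.4% of all genes in either direction.

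In LOF 6 h lungs the 4 were Amot, an angiomotin that links polarity proteins to actin, at 0.53 ± 0.17, Prkcz, an atypical protein kinase C of the Par complex, at 0.87 ± 0.28, the junctional adhesion molecule Igsf5 at -1.59 ± 0.56, and Rab13 at 0.42 ± 0.16 (adjusted p = 0.344 to 0.462 by limma). Igsf5 read 4.17, 4.10 and 2.60 in LOF 6 h lungs, against 4.42, 5.52 and 5.69 in control lungs, so that 1 LOF array lay far below the others. Rab13 was above all 3 controls on all 6 LOF arrays. In GOF 9 h lungs the 4 were Mpp5 (Pals1), the Crumbs complex scaffold, at -0.62 ± 0.21, Sympk at -0.46 ± 0.21, the endothelial adhesion gene Esam at -0.43 ± 0.21 and Cldn15, a pore-forming claudin, at 0.49 ± 0.25 (adjusted p = 0.955 to 0.957 by limma). All 12 endothelial marker genes, Esam among them, were below control in GOF 9 h lungs (median -0.22) and 11 of 12 were above it in LOF 9 h lungs. They averaged -0.04 to 0.04 on LOF 6 h arrays, -0.06 to 0.32 on LOF 9 h arrays, -0.30 to -0.08 on GOF 9 h arrays and -0.06 to 0.04 on control arrays, relative to the control mean, and their part in the Esam value was not tested.

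**Figure D3:**
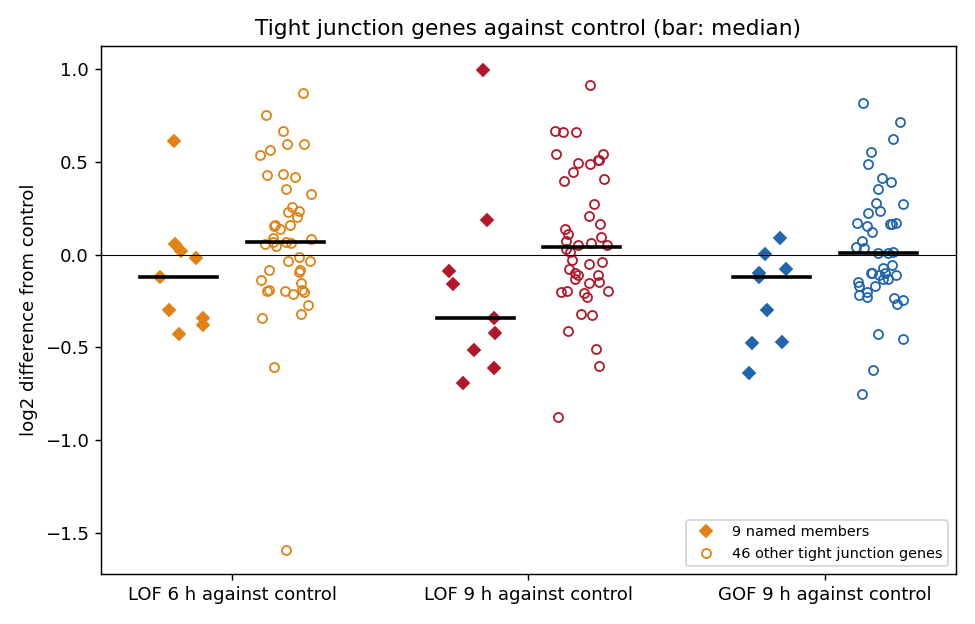
Log2 difference from control of the 9 genes (filled diamonds) and of 46 other measured tight junction genes (open circles) in LOF 6 h, LOF 9 h and GOF 9 h lungs, with the median of each as a bar; sideways position only separates the points. The median of the 9 against that of the 46 was -0.12 against 0.07 at LOF 6 h, -0.34 against 0.04 at LOF 9 h and -0.12 against 0.01 at GOF 9 h, with Tjp3 the highest of the 9 in both LOF groups.

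Over the 12 arrays, Tjp3 and Cldn7 ran in opposite directions (Pearson r = -0.77), and their deviations from the group means correlated at -0.37. Of the 14268 genes whose mean over the arrays was above 2.79, the median of such means over all features, those most like Tjp3 were Efna1, the ligand ephrin-A1 (r = 0.97), Cdh16, a cadherin known from kidney and thyroid epithelia (r = 0.97), and Celsr1, a cadherin of planar cell polarity (r = 0.95). With the group means removed, the r values were 0.96, 0.89 and 0.89, with GOF 9 h array 1 the lowest of the 12 for all 4 genes. Cdh16 read 9.66, 9.74 and 9.64 in LOF 6 h lungs, 10.24, 10.20 and 10.16 in LOF 9 h lungs, 8.04, 8.85 and 9.37 in GOF 9 h lungs, and 9.19, 9.05 and 9.41 in control lungs. Efna1 read 9.27, 9.14 and 9.34 in LOF 6 h lungs, 9.52, 9.31 and 9.31 in LOF 9 h lungs, 8.33, 8.61 and 8.91 in GOF 9 h lungs, and 8.69, 8.78 and 8.67 in control lungs. Celsr1 lay between 10.46 and 10.73 on LOF arrays, between 9.78 and 10.23 on GOF 9 h arrays and between 10.24 and 10.30 on control arrays. These genes were picked for their likeness to Tjp3 from the same arrays, so the values are a description.

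**Figure D4:**
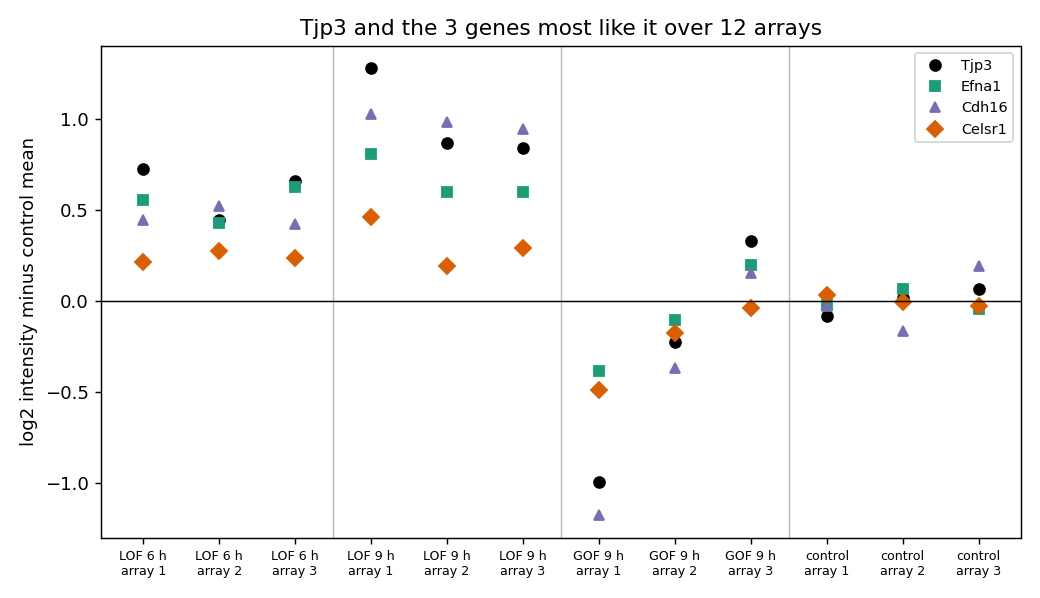
Log2 intensity minus the control mean on each of the 12 arrays for Tjp3 and the 3 genes with the highest Pearson r to it (Efna1, Cdh16, Celsr1). All 4 lay above the control mean on every LOF array and were lowest on GOF 9 h array 1.

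Ocln and Cldn4, the next members by range of group means (0.75 and 0.64, against 1.29 for Tjp3), had lower r values over the 12 arrays. Ocln was most like Olfr434 (r = 0.89), whose mean of 2.87 was close to that median, Eml4 (r = 0.86) and Gm4825 (r = 0.85), and Cldn4 most like Slc35c2 (r = 0.87), Rrp12 (r = 0.85) and Lsm6 (r = 0.84), none of them a gene of the tight junction. With group means removed the r values were 0.78 to 0.83 for Ocln and 0.90 to 0.94 for Cldn4, against 0.89 to 0.96 for Tjp3. The pairs of members other than Tjp3 and Cldn7 had r between -0.56 and 0.60.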

How the data were processed

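The authors extracted total RNA from whole lungs, amplified and labelled it with Cy3 and hybridized it to one-colour Agilent arrays. According to the methods, they corrected spot signals with NormExp on negative control spots, took logarithms and quantile-normalized between arrays with limma. The deposited table holds log2 intensities of 62976 features on 12 arrays (1.44 to 15.92, with 10 missing values). Features were named from the platform's accession or symbol and brought to current RefSeq symbols. Of the features, 31465 received 1 symbol, and the other 31511 were left out. The brightest feature stood for each of the 20736 genes, of which 6170 had more than 1 feature, and no dim feature was filtered out. Named features with a missing value (6) were left out.

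The model of limma 3.58.1 (R 4.3.3) had group means only and used all 12 arrays (8 residual degrees of freedom, prior 2.27), two-sided. The number of arrays limits the precision, with a median SE of 0.265. Where nothing says that arrays came from separate litters, p-values measure the spread between these arrays. The fit was tested on simulated data. Beside the 9 genes, the text names other tight junction genes past the threshold or else the 4 with the smallest p per comparison with control, Etv5 and Sftpc as a check, Fgf10 as a transgene, Cdh1 and Epcam as epithelial references, and for the 3 members of largest range the 3 genes most correlated with each. Igsf5 and Rab13 array values, the airway genes named and the marker levels beside Tjp3, Cldn18 and Esam, Xist among them, were chosen after their values were seen. The members and lists were chosen with earlier results of these data known. Alternatives were median centring, cyclic loess, the mean of features, every feature, level filters, variance settings, array weights, covariates, a replicate block and leaving out each array.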

Additional observations from a re-analysis of the deposited data

How the results depend on the processing

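Followed here were 31 member differences, namely all those against control and, between treated groups, only those of members whose groups did not overlap. Over 782 alternative values of these, 749 kept direction and side of the threshold, 31 reversed and 2 passed the threshold only in the alternative. Both of these were Tjp3 between GOF 9 h and LOF 9 h lungs, where trended and robust variances or leaving out GOF 9 h array 3 gave 1 member past the threshold in place of 0, and the range with an array left out was 0 to 1. In the other comparisons the count of members was 0 under every alternative run, including the replicate block, in which the adjusted p of that Tjp3 difference was 0.145. Deviations of same-numbered arrays correlated at -0.0031 to 0.10, with 0.084 to 0.10 for number 1 and -0.0031 to 0.053 for numbers 2 and 3. Arrays of different numbers were not compared, so whether the numbers pair the arrays was not settled. Over all genes, with no array left out, the counts ranged from 1 to 122 in LOF 6 h (15 as fitted), 4 to 104 in LOF 9 h (15), 0 to 3 in GOF 9 h (0), 0 to 161 between LOF 9 h and LOF 6 h (13) and 11 to 500 between GOF 9 h and LOF 9 h lungs (58).

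The cause of the reversals was not tested. Against control, the heart mean as covariate gave Cldn4 0.17 and Ocln -0.55 in LOF 6 h, and Cldn3 0.096, Ocln 0.023 and Tjp3 0.0015 for GOF 9 h. The second feature gave Ocln -0.21 in LOF 6 h, Cldn4 0.45 for LOF 9 h, and Cldn4 0.051 and Ocln 0.32 for GOF 9 h. The mean of features gave Ocln -0.078, and subtracting the epithelial list gave Ocln -0.068 and F11r -0.10, all in LOF 6 h. Array weights gave Tjp1 0.013 for LOF 6 h and -0.00038 for GOF 9 h, and the Y-linked mean as covariate gave Tjp1 -0.00020 for GOF 9 h. With an array left out, the LOF 6 h ranges were -1.02 to 0.098 for Cldn18, -0.23 to 0.29 for Ocln, -0.10 to 0.049 for Tjp1 and -0.012 to 0.057 for F11r. Those of GOF 9 h were -0.21 to 0.052 for Cldn3, -0.19 to 0.012 for Cldn6, -0.14 to 0.019 for Cldn7, -0.083 to 0.073 for Tjp1 and -0.61 to 0.049 for Tjp3. For Tjp3 in LOF 9 h lungs the range was 0.85 to 1.07.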
